A study of Mus musculus with 6 samples.

Results

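The 76 genes described here are the secreted messengers of leukocyte traffic and growth that the count table lists by systematic name. They were chosen by name alone, as Ccl, Cxcl or Il followed by digits and an optional a or b, with receptors left out, together with Cx3cl1, Csf1, Csf2, Csf3, Lif, Tnf and Tslp. They make up 76 of the 21959 genes in the table: 23 CC chemokines, 14 CXC and CX3C chemokines, 33 interleukins, and 6 colony-stimulating factors and related cytokines. RNA was sequenced from MPC, a mouse gastric adenocarcinoma line, and from MPC-PTX, the line raised from it under more than 30 cycles of paclitaxel (PTX), with 3 libraries per line. The study's paper calls these lines MTC and MTC-R. Both carry the genotype CDH1-/-;Trp53-/-. They descend from gastric organoids of C57BL/6J mice with floxed Trp53 and Cdh1 and Mist1-CreER, which were grown as a subcutaneous tumour in nude mice before cells were isolated and cloned. Each line was selected as a single clone, so that a difference between clones and an effect of the drug cannot be told apart. The labels do not say whether the libraries of a line came from separate cultures, and p-values measure only the spread between these libraries, which may be technical.

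Chemokines guide leukocytes along a gradient. CXC chemokines such as Cxcl1, Cxcl2, Cxcl3 and Cxcl5 act on neutrophils through Cxcr2, whereas CC chemokines mainly attract monocytes, dendritic cells and lymphocytes. Epithelial cells also hold interleukins that act as alarm signals, including Il1a, Il18 and Il33, and can release growth factors of the myeloid lineage such as Csf1 and Csf3. In these cultures the measured RNA is that of the tumour line itself, and fewer cells that make a transcript and less transcript per cell cannot be told apart.

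The libraries held 16574580 to 23148182 counts, in which 13897 to 14295 genes had at least 1 count, and 11795 genes passed the filter on low counts. Levels are given as CPM, counts scaled to a library size of 1000000 after normalisation. Neither Cdh1 nor Trp53 was called in the test described below (adjusted p = 0.864 and 0.228), and the table gives whole genes, so the deleted exons could not be seen. Deviations from the line's mean tracked the GC content of genes most in MPC replicate 3 and MPC replicate 1, with Spearman coefficients across genes of -0.58 and 0.47, against -0.27 to 0.35 in the other libraries. Where leaving out one of these libraries changed a member's call, the value without it is given beside the result.

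Cytokine transcripts took a larger share of the MPC-PTX libraries than of the MPC libraries. More came from CXC chemokines, mainly Cxcl5, and less from interleukins, mainly Il33. These sums are given as a description, with no test. The 76 genes took 0.155%, 0.158% and 0.154% of all counts in the MPC libraries and 0.197%, 0.194% and 0.196% in the MPC-PTX libraries. The 14 CXC and CX3C chemokines summed to 1055, 1128 and 1108 CPM in MPC and 1493, 1474 and 1492 CPM in MPC-PTX. The 33 interleukins summed to 185, 208 and 216 CPM in MPC and 112, 110 and 109.7 CPM in MPC-PTX. Neither pair of sums overlapped between the lines. Cxcl5 alone held 39.8%, 46.8% and 48.2% of the cytokine counts in MPC and 51.3%, 51.3% and 52.8% in MPC-PTX. Without Cxcl5, the summed CPM of the other members overlapped between the lines. The tested CXC and CX3C chemokines other than Cxcl5 summed to 419, 389 and 357 CPM in MPC. In MPC-PTX they summed to 493, 488 and 472 CPM. Il33 alone held 82.3, 113 and 120 CPM in MPC and 40.8, 40.0 and 37.2 CPM in MPC-PTX.

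Of the 76 members, 27 passed the filter and were tested, 28 had counts below it and 21 had none. A gene was called when its p, from the quasi-likelihood test of edgeR and adjusted over all 11795 genes, was below 0.05. The filter asks for enough counts in 3 libraries, so a gene that is low in one line can pass through the other alone, and the counts that follow describe the tested members only. Of the 27 tested members, 11 were called, beside 29.7% of all tested genes. Cxcl2, Cxcl3, Cxcl5, Cx3cl1 and Il7 were higher in MPC-PTX, 5 of 27 where 14.1% of all tested genes were called higher. Il15, Il18, Il23a, Il24, Il33 and Tnf were lower, 6 of 27 where 15.6% of all tested genes were called lower. The log2 fold change passed 1 in either direction for 6 called members, 5 of them lower, beside 7.73% of all tested genes. The 3 libraries of one line lay entirely above those of the other for 15 of the 27, beside 46.9% of all tested genes. The median log2 fold change was 0.13 over the 27 and 0.04 over all tested genes. By class, the 8 tested CXC and CX3C chemokines held 4 higher and no lower calls, the 9 tested interleukins 1 higher and 5 lower, the 4 tested colony-stimulating factors and related cytokines 1 lower, and the 6 tested CC chemokines none.

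**Figure D1:**
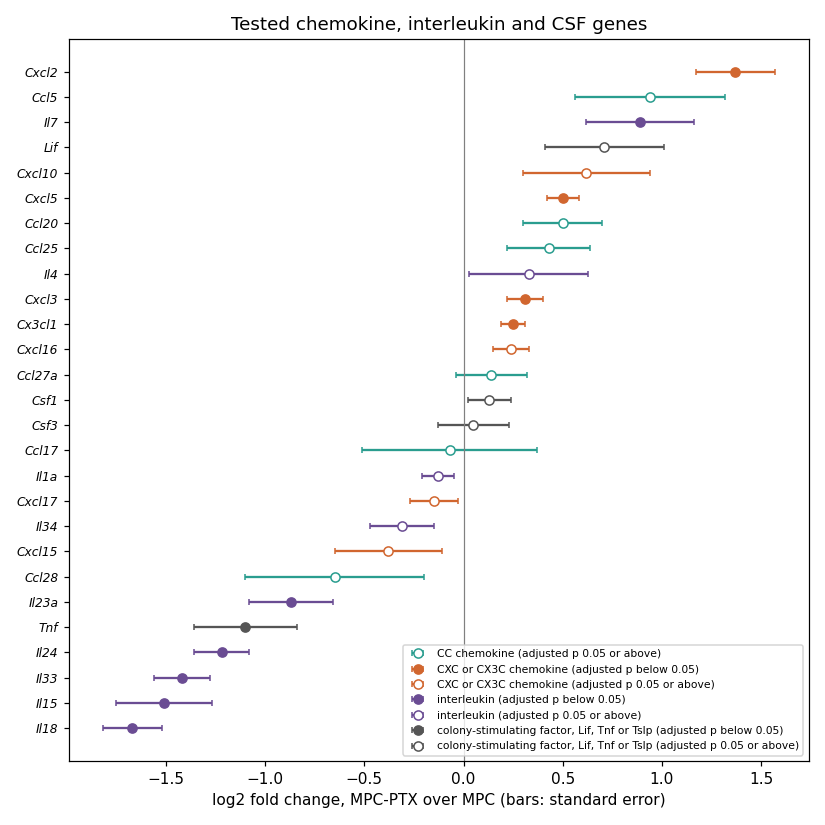
Log2 fold change of the 27 tested members, MPC-PTX over MPC, with bars of 1 standard error (edgeR, 3 libraries per line). Il18 lies at the low end at -1.67 and Cxcl2 at the high end at 1.37, and the 11 called members are marked.

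The largest rise among the chemokines was that of Cxcl2, a neutrophil attractant of the CXC family (chromosome 5 of GRCm38, 90903871 to 90905938). Its level was 21.7, 12.6 and 13.3 CPM in the MPC libraries and 40.8, 41.9 and 40.1 CPM in the MPC-PTX libraries. Every MPC-PTX library lay above every MPC library, and MPC replicate 1 lay apart from its own line. The level was 2.58-fold higher in MPC-PTX (log2 fold change 1.37, standard error 0.20, adjusted p = 0.00325). Without MPC replicate 1 the log2 fold change was 1.66, and over 14 alternative settings it ranged from 1.21 to 1.66 with a call in all 14.

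Cxcl5, whose product also recruits neutrophils through Cxcr2 (chromosome 5, 90759360 to 90761624), was the most abundant member by far. It stood at 635, 738.5 and 751 CPM in MPC and 999.8, 985 and 1019 CPM in MPC-PTX. The groups did not overlap, and the MPC-PTX libraries lay close together. The mean rose from 708 ± 63.5 CPM to 1001 ± 17.1 CPM (SD, n = 3), which was 1.41-fold (log2 fold change 0.50, standard error 0.08, adjusted p = 0.0034). This call too was kept in all 14 alternatives.

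Cxcl3 (chromosome 5, 90786103 to 90789600), a close relative of Cxcl2, rose by less. It had 71.4, 64.6 and 58.7 CPM in MPC and 82.4, 81.7 and 77.2 CPM in MPC-PTX, without overlap. The log2 fold change was 0.31 (standard error 0.09, adjusted p = 0.0348), and the call was kept in 5 of 14 alternatives, with an adjusted p of up to 0.252. The call was lost without MPC replicate 2 (adjusted p = 0.111) and without each MPC-PTX library (adjusted p = 0.0866 to 0.132). With all libraries kept, it was also lost with DESeq2 (adjusted p = 0.0596) and with its size factors (adjusted p = 0.0575). The same held with at least 10 counts in every library (adjusted p = 0.0666). It held too with GC content and length corrected, without and with the replicate number as a block (adjusted p = 0.252 and 0.0837). Cxcl1, the remaining member of this group of neutrophil attractants, was nearly silent, with 5, 3 and 3 counts in MPC and 4, 11 and 7 in MPC-PTX. Its counts per total count were 1.94 times as high in MPC-PTX, with an exact 95% interval of 0.903 to 4.44 that covers counting error only. Cxcl1, Cxcl2 and Cxcl3 are close in sequence, and the sources used here do not give how reads that map to several genes were counted, so the split between them is uncertain.

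These genes lie within 147 kb of chromosome 5, together with Cxcl15, Ppbp and Pf4. Their transcripts did not all change in one direction. Ppbp (also known as Cxcl7, and outside the naming rule) lies 9.2 kb from the start of Cxcl5 and fell, from 10.0, 13.9 and 13.8 CPM in MPC to 5.81, 5.68 and 5.35 CPM in MPC-PTX (log2 fold change -1.16, standard error 0.15, adjusted p = 0.00163). Cxcl15, an epithelial chemokine 35.2 kb from that start, had 16, 23 and 20 counts in MPC and 21, 15 and 12 in MPC-PTX and was not called (adjusted p = 0.329). Pf4 had 1 count in MPC and 8 in MPC-PTX. The stretch thus held 3 called rises and 1 called fall, with levels that ranged from single counts to 1019 CPM.

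**Figure D2:**
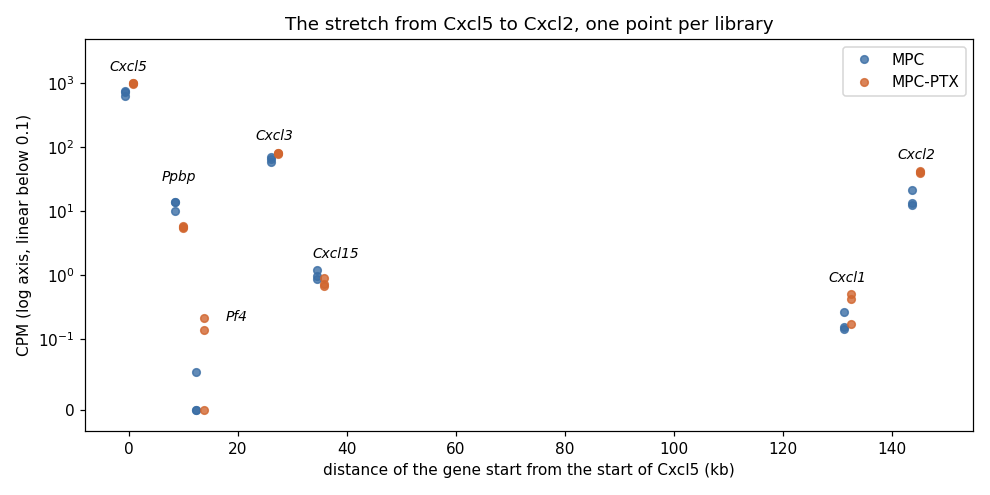
Level in each library, in CPM on a log axis that turns linear near 0, of the genes of the CXC stretch, against the distance of each gene from the start of Cxcl5 in kb, with libraries of MPC and MPC-PTX in separate colours. Cxcl5, Cxcl3 and Cxcl2 were higher in MPC-PTX, Ppbp was lower, and Cxcl1 and Pf4 lay near the bottom of the scale.

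The sequences just before the starts of Cxcl1, Cxcl2 and Cxcl3 show what these neighbours share, and that of Ccl20 shows a CC chemokine with a comparable element. Each is a stretch of 120 bases of the RefSeq promoter window (GRCm38.p6), 5′ to 3′, with the match to the NF-kB motif in capitals.
Cxcl1 (chr5:90891125-90891244, + strand): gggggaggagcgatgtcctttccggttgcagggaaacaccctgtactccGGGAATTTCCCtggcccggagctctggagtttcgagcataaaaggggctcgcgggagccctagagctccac
Cxcl2 (chr5:90903779-90903898, + strand): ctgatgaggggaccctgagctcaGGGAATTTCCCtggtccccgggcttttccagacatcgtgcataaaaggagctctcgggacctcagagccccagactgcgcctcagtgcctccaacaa
Cxcl3 (chr5:90785981-90786100, + strand): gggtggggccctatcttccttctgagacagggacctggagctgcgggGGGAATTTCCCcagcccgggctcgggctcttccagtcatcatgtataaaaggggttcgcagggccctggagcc
Ccl20 (chr1:83116646-83116765, + strand): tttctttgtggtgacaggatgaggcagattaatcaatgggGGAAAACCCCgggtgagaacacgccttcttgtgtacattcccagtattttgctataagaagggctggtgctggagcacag
The 3 CXC promoters carried the identical run GGGAATTTCCC, whose first base lay 71, 97 and 73 bases before the start of Cxcl1, Cxcl2 and Cxcl3, and which matched the motif on both strands. The match of Ccl20 was on the opposite strand, 80 bases before its start. Of these 4 genes, Cxcl2 and Cxcl3 were called higher, Ccl20 was not called and Cxcl1 was below the filter, so that the same element stood before transcripts at 41.0 CPM and at a few counts per library. Promoter windows of 300 bases were found for 51 of the 76 members, with 63 windows in all since some genes have several starts. Cxcl5 was among the members without a window, so its promoter was not searched. Of these 51 members, 11 held an NF-kB match in at least 1 window, as did 5.14% of all 27025 genes, while 4.51% of all 32851 windows held one. Among the 17 tested members with a window, Ccl20, Ccl27a, Csf1, Cxcl10, Cxcl2 and Cxcl3 held one. For AP-1 (TGANTCA) the figures were 13 of 51 members, 8.97% of all genes and 7.81% of all windows, and Lif, Il1a, Cxcl10, Ccl27a and Ccl28 were the tested members with a match. C/EBP (TTGCNNAA) matched 10 of 51 members, 12.2% of all genes and 10.8% of all windows, and Il33, Il4 and Ccl27a were the tested ones. The core of the interferon-stimulated response element (TTTC, any pair of bases, TTTC) matched 5 of 51 members, 3.99% of all genes and 3.44% of all windows, with Cxcl10 and Il4 among the tested members. Both strands were searched, and a gene or window with several matches was counted once. A match describes letters and not binding.

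Cx3cl1 is a chemokine tethered to the membrane that binds Cx3cr1 on monocytes and lymphocytes (chromosome 8, 94772009 to 94782427). It stood at 115, 120 and 114 CPM in MPC and 137, 142 and 135 CPM in MPC-PTX, with no overlap. The rise was small and exceeded the spread within each line (1.19-fold, log2 fold change 0.25, standard error 0.06, adjusted p = 0.0169). The call was lost in 5 of 14 alternatives, among them the removal of each MPC-PTX library in turn (adjusted p = 0.0678 to 0.101). The others were DESeq2 (adjusted p = 0.0603) and at least 10 counts in every library (adjusted p = 0.0519).

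Cxcl16, which also has a membrane-bound form and binds Cxcr6, was the next most abundant chemokine. Its levels were 198, 180 and 161 CPM in MPC and 221, 210 and 207 CPM in MPC-PTX, which did not overlap, yet it missed the threshold (log2 fold change 0.24, standard error 0.09, adjusted p = 0.0698). It was called without MPC replicate 1 (0.32, adjusted p = 0.0125) and in 4 other alternatives. The exons of Cxcl16 share 552 bases, 18.3% of their length, with Zmynd15 on the other strand, and the sources used here do not say whether strand was counted. Cxcl17 (log2 fold change -0.15, adjusted p = 0.386) and Cxcl10, an interferon-induced chemokine at 1.11 to 3.38 CPM (0.62, adjusted p = 0.187), were not called.

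Among the CC chemokines none passed the test. Ccl20, which draws Ccr6-bearing dendritic cells and lymphocytes, was the most abundant per kilobase at 13.8, 8.04 and 8.84 CPM in MPC and 15.2, 13.2 and 15.0 CPM in MPC-PTX. MPC replicate 1 lay within the range of MPC-PTX, and the other MPC libraries lay below it (log2 fold change 0.50, standard error 0.20, adjusted p = 0.107). Without that library the log2 fold change was 0.77 (adjusted p = 0.00332). Ccl5, a T-cell and monocyte attractant, had 13, 12 and 9 counts in MPC and 19, 21 and 28 in MPC-PTX, which did not overlap (0.94, standard error 0.38, adjusted p = 0.106). Ccl25 (0.43), Ccl27a (0.14), Ccl17 (-0.07) and Ccl28 (-0.65) had adjusted p-values of 0.175 to 0.924. Ccl25 was called without MPC replicate 3 (0.61, adjusted p = 0.015). Ccl2, the main monocyte attractant, had 4 counts in all in each line.

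**Figure D3:**
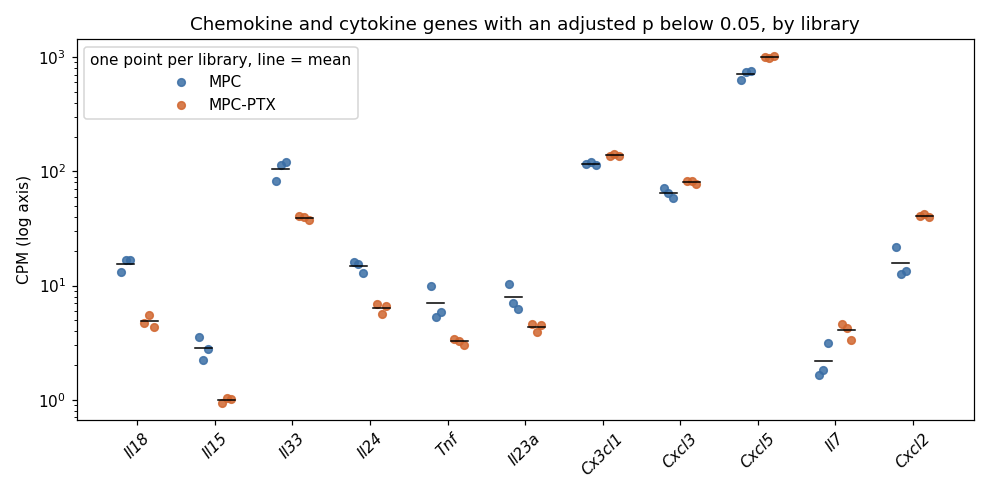
Level of the 11 called members (vertical log axis, CPM), with a point per library and a bar at the mean of each line. For each gene the points of MPC and MPC-PTX do not overlap.

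The interleukins called lower were Il18, Il15, Il33, Il24 and Il23a, in order of their fold. Il18, a member of the Il1 family that is released after cleavage by caspases (chromosome 9, 50554827 to 50581840), had 13.2, 16.6 and 16.6 CPM in MPC and 4.74, 5.50 and 4.34 CPM in MPC-PTX. All MPC-PTX libraries lay far below all MPC libraries. The level was 3.17-fold lower (log2 fold change -1.67, standard error 0.15, adjusted p = 0.000272), the largest fall of any tested member, and over the alternatives it lay between -1.77 and -1.59.

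Il33, another Il1 family alarm cytokine that is stored in the nucleus (chromosome 19, 29925114 to 29960718), was the most abundant interleukin of MPC. It had 82.3, 113 and 120 CPM in MPC and 40.8, 40.0 and 37.2 CPM in MPC-PTX, again without overlap. The mean fell from 105 ± 20.0 CPM to 39.3 ± 1.89 CPM (SD, n = 3), or 2.67-fold (log2 fold change -1.42, standard error 0.14, adjusted p = 0.000507). The call was kept in all 14 alternatives, with values of -1.57 to -1.36. Il1a, an alarm cytokine of comparable level, changed little by comparison, with 50.4, 44.7 and 46.3 CPM in MPC and 42.0, 42.8 and 44.4 CPM in MPC-PTX. These ranges did not overlap, and the difference missed the threshold (log2 fold change -0.13, standard error 0.08, adjusted p = 0.254). Without MPC replicate 3 it was called (-0.19, adjusted p = 0.0472). Il1b had 3 counts in all in MPC and 2 in MPC-PTX.

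Il24, of the Il10 family, signals to epithelial cells through Il20rb and Il22ra1 (chromosome 1, 130882074 to 130887454). It had 16.2, 15.4 and 12.8 CPM in MPC and 6.83, 5.59 and 6.65 CPM in MPC-PTX. The groups lay well apart, and the level was 2.32-fold lower in MPC-PTX (log2 fold change -1.22, standard error 0.14, adjusted p = 0.000834). Il15, a growth factor of natural killer and memory T cells (chromosome 8, 82331632 to 82403222), was scarce, with 67, 43 and 58 counts in MPC and 22, 23 and 17 in MPC-PTX. The lowest MPC library still held more counts than the highest MPC-PTX library, and the level was 2.86-fold lower (log2 fold change -1.51, standard error 0.24, adjusted p = 0.00367). Both genes were called in all 14 alternatives.

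Tnf, the prototype inflammatory cytokine (chromosome 17, 35199381 to 35202007), had 9.88, 5.26 and 5.81 CPM in MPC and 3.42, 3.29 and 3.03 CPM in MPC-PTX. MPC replicate 1 was the highest by a wide margin, but the other MPC libraries also lay above all of MPC-PTX. The level was 2.14-fold lower (log2 fold change -1.10, standard error 0.26, adjusted p = 0.0171). Il23a, which encodes the subunit particular to Il23 (chromosome 10, 128296139 to 128298752), was likewise highest in MPC replicate 1, with 10.4, 7.06 and 6.29 CPM in MPC, and had 4.57, 3.92 and 4.52 CPM in MPC-PTX. It was 1.83-fold lower (log2 fold change -0.87, standard error 0.21, adjusted p = 0.0193). The calls of Tnf and Il23a were lost when any 1 MPC-PTX library was left out (adjusted p = 0.0596 to 0.0692 and 0.0628 to 0.0831). Il12b, the subunit with which Il23a forms Il23, had no count in any library.

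Il7, a survival factor of lymphocytes (chromosome 3, 7569994 to 7613760), was the only interleukin called higher. It had 31, 35 and 65 counts in MPC and 107, 95 and 56 in MPC-PTX, or 1.65, 1.80 and 3.12 CPM against 4.57, 4.28 and 3.33 CPM. The scaled levels did not overlap, although MPC replicate 3 and MPC-PTX replicate 3 lay close together. The log2 fold change was 0.89 (standard error 0.27, adjusted p = 0.0446), and the call was lost in 6 of 14 alternatives. These included the removal of MPC replicate 1 (0.72, adjusted p = 0.0801), of MPC replicate 2 (0.76, adjusted p = 0.15) and of each MPC-PTX library (0.79 to 1.01, adjusted p = 0.0699 to 0.148). Il34, a ligand of Csf1r, and Il4, a type 2 cytokine, had log2 fold changes of -0.31 (adjusted p = 0.182) and 0.33 (adjusted p = 0.457).

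Among the colony-stimulating factors, Csf1 and Csf3 were well expressed and were not called with all libraries. Csf1, the macrophage growth factor, had 191, 149 and 141 CPM in MPC and 179, 174 and 173 CPM in MPC-PTX (log2 fold change 0.13, standard error 0.11, adjusted p = 0.422). Csf3, the granulocyte growth factor, had 35.7, 24.5 and 22.0 CPM in MPC and 29.3, 29.2 and 26.4 CPM in MPC-PTX (0.05, standard error 0.18, adjusted p = 0.86). For both, MPC replicate 1 lay above all MPC-PTX libraries and the other MPC libraries below them. Without MPC replicate 1, Csf1 was called higher (0.28, adjusted p = 0.00941) and Csf3 was not (0.28, adjusted p = 0.055).

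Lif, a cytokine that signals through Lifr and Il6st, also had its highest MPC level in replicate 1. It had 95.6, 46.0 and 43.8 CPM in MPC and 106, 102 and 95.5 CPM in MPC-PTX. MPC replicate 1 reached the level of MPC-PTX while the other MPC libraries stood far below it. With all libraries the log2 fold change was 0.71 (standard error 0.30, adjusted p = 0.119). It was 1.17 without MPC replicate 1 (adjusted p = 8.91e-05), and Lif was called in 5 of 14 alternatives. MPC replicate 1 was the highest MPC library for 16 of the 27 tested members and for 40.4% of all tested genes. These 16 included Tnf, Il23a, Lif, Csf1, Csf3, Ccl20, Cxcl2, Cxcl3, Cxcl10 and Cxcl16. Without MPC replicate 1, 14 members were called, 8 of them higher in MPC-PTX. Over all tested genes, 4320 of 11998 were called in that setting, and 3509 of 11795 with all libraries. The cause of the difference between the MPC libraries was not tested.

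Levels per kilobase of exon set the members in order. Cxcl5 led in both lines, at 380 CPM per kb in MPC and 537 CPM per kb in MPC-PTX, and Cxcl16 came next at 59.5 and 70.4 CPM per kb. In MPC these were followed by Il33 (36.4), Csf1 (30.3) and Cx3cl1 (29.6). The libraries of these 3 genes overlapped in level, so their order in MPC is not beyond their spread. In MPC-PTX, Cx3cl1 (35.2) and Csf1 (33.2) followed Cxcl16, Lif (23.2) and Cxcl3 (22.99) lay side by side, and Il33 stood at 13.6 CPM per kb. Cxcl2 rose from 7.68 to 19.8 CPM per kb and Il18 fell from 15.0 to 4.71 CPM per kb. The lowest tested member was Ccl28 at 0.172 and 0.112 CPM per kb.

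**Figure D4:**
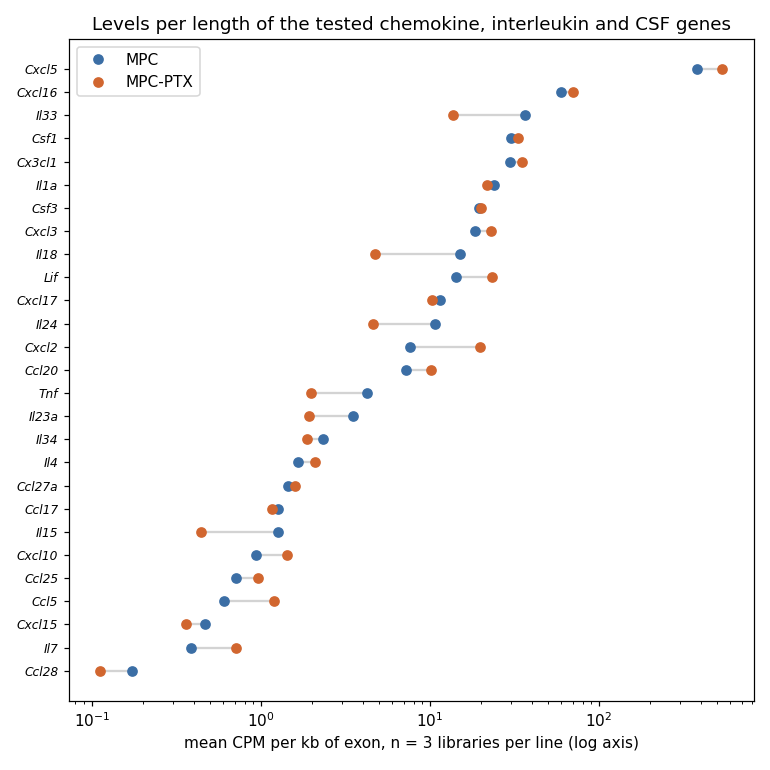
Mean level per kilobase of exon of the 27 tested members (horizontal log axis, CPM per kb), with a point for MPC and one for MPC-PTX joined by a line and the genes ordered by their level in MPC. Cxcl5 stands apart at the top, the point of MPC-PTX lies to the right for Cxcl2, and it lies to the left for Il18, Il33, Il24, Il15 and Tnf.

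Most of the family was silent or nearly so. No count was found in any library for 21 members, among them Il10, Il12a, Il12b, Il17a, Il22, Il25, Ccl19, Ccl8 and Tslp. A count of 0 in 3 libraries allows up to 0.0501 CPM in MPC and 0.0487 CPM in MPC-PTX on the unscaled totals. This floor covers counting error only, and the sources used here do not give how reads that map to several genes were counted. Il6 had 1 count in all 6 libraries. It was 1 of 19 members with 1 to 9 counts in total. The 9 members with at least 10 counts below the filter were Ccl6, Ccl9, Csf2, Cxcl1, Cxcl12, Il11, Il16, Il36a and Il36b. Csf2, the granulocyte and macrophage growth factor, had 22, 7 and 5 counts in MPC and 2, 7 and 3 in MPC-PTX, so that most MPC counts came from replicate 1. Its counts per total count were 2.92 times as high in MPC, with an exact 95% interval of 1.47 to 6.19. Il11 had 9, 9 and 7 counts in MPC and 15, 12 and 8 in MPC-PTX. Ccl6 had 11, 5 and 5 counts in MPC and 3, 5 and 0 in MPC-PTX, a ratio of 2.70 in favour of MPC (1.15 to 7.06). The intervals of the other members in this group included 1. Cxcl12, the ligand of Cxcr4 and Ackr3, had 1, 4 and 5 counts in MPC and 5, 8 and 7 in MPC-PTX. Ccl9 had 14 and 24 counts in the lines, Il16 had 8 and 13, Il36a had 13 and 7, and Il36b had 3 and 9. With the filter removed, none of these 28 members was called, at adjusted p-values of 0.167 to 0.984.

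The receptors for these ligands were listed separately. Of 23 chemokine receptors only Ccrl2 and Ackr3 had enough counts to test. Ackr3, an atypical receptor that takes up Cxcl12 and Cxcl11, rose from 17.4, 16.5 and 15.4 CPM in MPC to 49.8, 47.4 and 48.4 CPM in MPC-PTX (log2 fold change 1.56, standard error 0.08, adjusted p = 3.49e-05). Receptors for the CXC ligands that rose were near 0, with 2 and 1 counts of Cxcr2 and 2 and 3 counts of Cx3cr1 in all in MPC and MPC-PTX.

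Of 48 receptors for interleukins, colony-stimulating factors and related cytokines, 25 were tested, 5 were called higher and 3 lower, where 14.1% and 15.6% of all tested genes were. Together these 8 were 32% of the tested receptors, near the 29.7% of all tested genes, and their median log2 fold change was 0.35, beside 0.04 over all tested genes. Crlf2, a chain of the Tslp receptor, stood at 2.71, 2.17 and 2.02 CPM in MPC and 6.45, 5.37 and 4.99 CPM in MPC-PTX (log2 fold change 1.29, standard error 0.18, adjusted p = 0.00215), while Tslp itself had no count. Il17rd fell from 9.19, 12.1 and 14.7 CPM to 4.36, 4.82 and 3.51 CPM (-1.5, standard error 0.20, adjusted p = 0.00193). Osmr (0.98), Il6ra (0.65), Tnfrsf1b (0.53) and Il17ra (0.29) were the other higher calls, and Il17re (-0.56) and Il18rap (-0.46) the other lower ones.

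For the ligands that fell, the matching receptors were measured in the same cells. Il18rap, the accessory chain for Il18, was lower, as given above, and Il18r1, the binding chain, was not called (log2 fold change 0.35, adjusted p = 0.087). Il1rl1, the receptor of Il33, lay at 0.361 to 0.744 CPM in MPC and 0.586 to 1.90 CPM in MPC-PTX (0.93, adjusted p = 0.248). Neither Il20rb (0.28, adjusted p = 0.46) nor Il22ra1 (0.40, adjusted p = 0.0739) for Il24 was called, while the further chain Il20ra is not given here. Il15ra (0.56, adjusted p = 0.171) was not called either, and the other chains of the Il15 receptor were scarce, with 12 and 3 counts of Il2rb and 1 and 4 counts of Il2rg in all in MPC and MPC-PTX. Il1rap, the accessory chain for Il33, had a log2 fold change of 0.74 (adjusted p = 0.0661). For Tnf, Tnfrsf1b was higher (adjusted p = 0.00321) and Tnfrsf1a was not called (-0.23, adjusted p = 0.108). Il7r had no count, Il23r had 0 and 2 counts in all, and Il12rb1, the other chain of the Il23 receptor, had 7 and 9.

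Genes that process or block these cytokines were tested as a list of 12, of which 6 passed the filter. Nlrc4, an inflammasome sensor upstream of caspase cleavage, had 1.38, 2.73 and 2.93 CPM in MPC and 0.555, 0.451 and 0.297 CPM in MPC-PTX (log2 fold change -2.39, standard error 0.39, adjusted p = 0.0041). Nlrc4 passed the filter through the MPC libraries, where it is high. Il1rn, the soluble antagonist of Il1, was slightly lower (-0.26, adjusted p = 0.0211). Gsdmd, the pore through which Il1 family cytokines leave the cell, and Casp4 were each higher by 0.47 (adjusted p = 0.0104 and 0.041).

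All 30 genes of the NF-kB list, a pathway that drives many chemokine genes, were tested. Of these, 10 were called higher and 2 lower, where 14.1% and 15.6% of all tested genes were, and the median log2 fold change was 0.18, beside 0.04 over all tested genes. Traf1, an adaptor of Tnf receptors, rose from 21.5, 13.7 and 13.9 CPM to 48.3, 50.1 and 48.4 CPM (log2 fold change 1.58, standard error 0.18, adjusted p = 0.00077). The inhibitors Nfkbid (1.29, adjusted p = 0.00706) and Nfkbie (1.08, adjusted p = 0.000635) also passed a log2 fold change of 1. Rel (0.79), Zc3h12a (0.77), Map3k14 (0.50), Ikbkb (0.42), Nfkb2 (0.40), Ikbke (0.34) and Tnip3 (0.28) rose, whereas Tnfaip3 (-0.45) and Ikbkg (-0.43) fell. Zc3h12a encodes a ribonuclease that degrades cytokine transcripts, and Tnfaip3 an enzyme that restrains the pathway. The subunits Rela (-0.03) and Nfkb1 (0.13) and the inhibitor Nfkbia (-0.08) were not called.

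**Figure D5:**
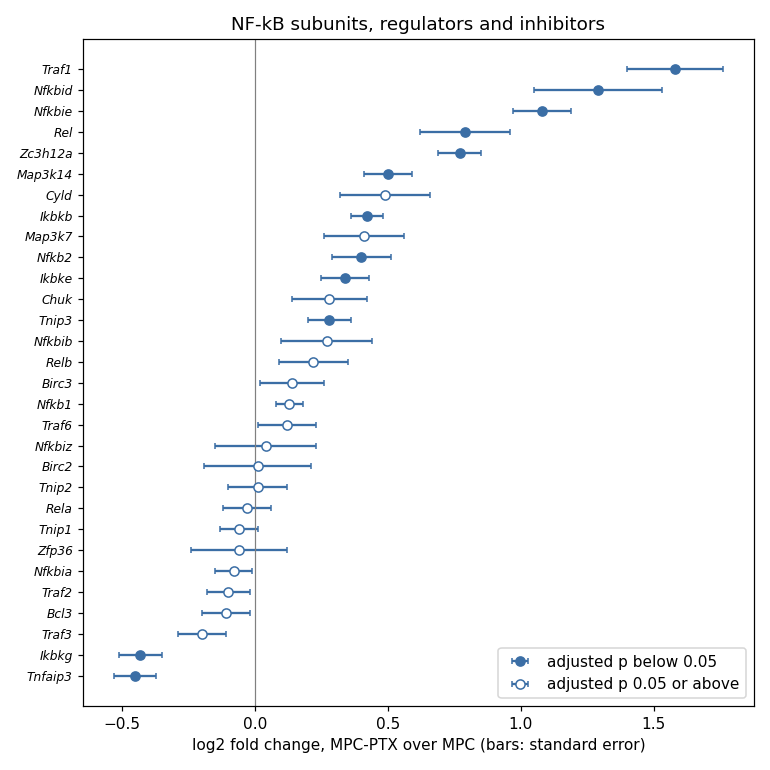
Log2 fold change of the 30 genes of the NF-kB list, MPC-PTX over MPC, with bars of 1 standard error (edgeR). Traf1, Nfkbid and Nfkbie lie above 1, and Tnfaip3 and Ikbkg are the called genes below 0.

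In the list of 20 genes of gp130 and JAK-STAT signalling, through which Lif and many interleukins act, 18 were tested, 4 were called higher and 3 lower, where 14.1% and 15.6% of all tested genes were, with a median log2 fold change of 0.18. Socs2 (0.81), Stat5a (0.64), Jak3 (0.37) and Stat3 (0.25) rose, and Stat2 (-0.81), Tyk2 (-0.63) and Cish (-0.57) fell. Socs3, a feedback target of Lif signalling, was not called (-0.13, adjusted p = 0.502).

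Genes around the called members were examined for shifts of a whole region. Over all tested genes, 14.1% were called higher and 15.6% lower. Within 1 Mb of Il18, 18 other genes were tested and had a median log2 fold change of -0.28, with 6 called lower and none higher. Around Il33 the median of 14 genes was -0.18, around Il24 that of 17 genes was 0.10, and around Il23a that of 52 genes was -0.23 with 22 called lower. Around Cxcl2, Cxcl3 and Cxcl5 the median of 10 genes was 0.25, with 4 called higher and 3 lower. Around Cx3cl1 the median of 31 genes was 0.18, with 11 called higher and 6 lower, around Tnf that of 64 genes was -0.06, around Il15 that of 3 genes was 0.66, and around Il7 that of 2 genes was 0.09. The log2 fold changes of Cx3cl1 (0.25) and Cxcl3 (0.31) thus lay close to the medians of their neighbours, and those of Il18, Il33, Il24, Il15, Tnf and Cxcl2 lay at least 1 away from theirs. The part of the regions in these results was not tested.

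Markers of other cells were read in the same libraries. All 8 epithelial markers were detected in each library and were lower in MPC-PTX, with a summed level of 10110 to 11690 CPM in MPC and 6297 to 6480 CPM in MPC-PTX and a median log2 fold change of -0.74. Cldn4 (-1.13, adjusted p = 0.000717) and Krt8 (-1.02, adjusted p = 0.000179) passed a log2 fold change of 1 among them. All 8 were called lower, where 15.6% of all tested genes were. Some cytokine genes were lower in the same libraries and others, Cxcl5 among them, were higher. A link between the epithelial list and either group was not tested. Of 12 leukocyte markers, 1 was tested, Cd68, which was not called, and the list summed to 11.3 to 12.9 CPM in MPC and 9.80 to 10.8 CPM in MPC-PTX. Ptprc had 10 and 16 counts in all in MPC and MPC-PTX, and Cd3g had none. The 9 fibroblast markers summed to 9.88 to 10.9 CPM in MPC and 8.63 to 10.0 CPM in MPC-PTX with 1 of 2 tested genes, Col1a1, called lower, and the 7 endothelial markers to 3.40 to 4.84 and 3.07 to 3.39 CPM with no call among 2 tested.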

How the data were processed

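Poly-A RNA of MPC and MPC-PTX cells (3 libraries per line) was sequenced by the authors, who filtered reads with fastp 0.22.0 and mapped them with HISAT2. The authors deposited raw read counts per gene, neither normalised nor pooled. The genome build, annotation, counting tool, use of strand and treatment of multi-mapping reads are not given in the sources used here. The series table was used. Each of the 6 tables deposited by sample was identical to its column there.

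From these counts, TMM scaling, filterByExpr (minimum count 10) and edgeR 4.0.16 (glmQLFit, robust, and glmQLFTest, R 4.3.3) were applied to all 21959 genes, of which 11795 were tested, with Benjamini-Hochberg adjustment. Standard errors are the log2 fold change divided by the root of the F statistic. Totals ranged from 16574580 to 23148182 counts. Intervals (95%, Clopper-Pearson) and the floor of 3 counts for a count of 0 cover counting error only. Positions, exon lengths and base composition were read from GENCODE M21 (GRCm38) for all 76 members. Promoters came from RefSeq (GRCm38.p6). With 3 libraries per line an exact permutation test of a single value cannot pass 0.05. The alternatives were DESeq2 1.42.0, its size factors, total-count scaling, no filter, at least 10 counts per library, the replicate number as a block, a loess correction for GC content and length (span 0.3), both together, and each library left out. The test was first run on simulated counts with a single size of change, independent replicates and no deviation by GC content. That run does not cover other sizes of change or such deviations.

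The members follow from the naming rule, and that rule, the lists and the tests were set with earlier results of these data known. Every tested member is named, and members below the filter with at least 10 counts are given by counts. From the lists, called genes past a log2 fold change of 1 and receptors of called members except Il20ra are given. Further called genes were added after their values were seen. Il12b is both a member and in the list of cytokines outside the naming rule.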

Additional observations from a re-analysis of the deposited data

How the results depend on the processing

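The calls of Cxcl2, Cxcl5, Il15, Il18, Il24 and Il33 were kept under all 14 alternatives, and every called member kept its direction. The cause of the changes that follow was not tested, except that fewer genes or libraries enter where a filter or a left-out library is named. Members called numbered 11, and 6 to 14 when 1 library was left out, with 6 without any 1 MPC-PTX library. Members called higher numbered 5, and 2 to 8 with 1 library left out, while those called lower numbered 6, and 4 to 7. With at least 10 counts in every library, 3 members were called higher, 2 genes of the antagonist and Il1 processing list were called (4 otherwise), and 574 of all genes were called past a log2 fold change of 1 (912 otherwise). With GC content and length corrected, 15 receptors of interleukins and colony-stimulating factors were called, and 14 with the block added, in place of 8. Calls over all 11795 tested genes also rose in these settings, from 3509 to 4801 and 4765. Leaving out 1 library gave 1904 to 6247 called genes in all (3509 with all libraries, 6247 without MPC replicate 3), 5 to 12 such receptors, 1 to 6 antagonist and Il1 processing genes, 3 to 10 gp130 and JAK-STAT genes (7 with all), 2 to 5 cytokines outside the naming rule (3 with all) and 8 to 18 NF-kB genes (12 with all).

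The sign of 4 members that were not called changed. Ccl17 had log2 fold changes of 0.064 with GC content and length corrected, 0.026 with the block added, and -0.40 to 0.24 with 1 library left out. With 1 library left out, Csf1 ranged from -0.0025 to 0.28, Csf3 from -0.14 to 0.28 and Ccl27a from -0.0057 to 0.27.

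Same-numbered libraries of the lines deviated together with correlations of 0.151, -0.023 and 0.173 across genes, so the numbers were not taken to pair them, and not every library correlated best with its own number. With the replicate number as a block, 3504 genes were called in all, 918 of them past a log2 fold change of 1. Of the members 13 were called, 7 higher and 6 lower, with Il7 lost (adjusted p = 0.0554) and Lif, Cxcl16 and Ccl20 gained. The lists gave 14 NF-kB, 8 gp130 and JAK-STAT, 9 interleukin and colony-stimulating factor receptor, 2 antagonist and Il1 processing, 3 further cytokine and 1 chemokine receptor calls with this block.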

Other observations

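Cytokines that the naming rule leaves out were read as a further list of 31 genes, of which 10 were tested. Among these, 1 was called higher and 2 lower, where 14.1% and 15.6% of all tested genes were. Together they were 30% of the tested list, near the 29.7% of all tested genes, and the median log2 fold change was -0.13. Tnfsf15, a ligand of the Tnf family that acts on T cells, had 1 count in the MPC libraries together and 118 in those of MPC-PTX, at 1.71, 2.16 and 1.78 CPM in the latter. The ratio per total count was 115, with an exact 95% interval of 20.2 to 4564 that covers counting error only. The gene passed the filter through the MPC-PTX libraries alone, where it is high, and was then called (edgeR, adjusted p = 0.000262). Mif, a cytokine that inhibits macrophage migration, was lower, with 189, 173 and 150 CPM in MPC and 141, 130 and 124 CPM in MPC-PTX (log2 fold change -0.37, standard error 0.10, adjusted p = 0.0268). Ppbp was the other gene called lower.

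Among listed genes below the filter with at least 10 counts, chosen for mention after their counts were seen, Cntf had 6 counts in MPC and 34 in MPC-PTX and Tnfsf10 had 13 and 38. The ratios of MPC-PTX to MPC were 5.50 (2.28 to 16.0) and 2.84 (1.48 to 5.81). Il36rn, the antagonist of Il36, had 30 and 4 counts and Il3ra had 19 and 3, and their ratios of MPC to MPC-PTX were 7.72 (2.72 to 30.2) and 6.52 (1.92 to 34.4). These intervals are exact at 95% and cover counting error between the pooled libraries of each line only.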
